A study of Mus musculus with 2 samples.

Results

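RNA was sequenced from B16 cells, a mouse melanoma line, in 1 library of LY500307-treated cells and 1 library of control-treated cells. LY500307 (erteberel) is a compound that activates the beta form of the estrogen receptor in preference to the alpha form. The labels used here give no dose, time or control agent and do not say whether cultures were pooled, and the 2 groups share every other label. The 38 genes described here carry glucose into the cell, break it down to pyruvate, turn pyruvate into lactate and export it, pass pyruvate to the mitochondrion, and run the pentose phosphate pathway. They were chosen by symbol for their place in these pathways, with earlier results of these data known. All 38 are among the 18224 genes of the deposited table.

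Glycolysis splits a sugar into a pair of triose phosphates at the cost of ATP and then recovers ATP and NADH from them, so its enzymes are described as an investment and a payoff phase. Tumour cells often take up much glucose and send the carbon to lactate even when oxygen is present. Lactate dehydrogenase restores NAD+ in that reaction, and monocarboxylate transporters carry lactate and a proton out of the cell. Pyruvate dehydrogenase instead commits pyruvate to mitochondrial oxidation, and its kinases switch it off. The pentose phosphate pathway branches off at glucose 6-phosphate, makes NADPH in its oxidative arm and ribose for nucleotides, and returns carbon to glycolysis through transketolase and transaldolase. Many of the glycolytic genes are known targets of hypoxia-inducible factors and of MYC, and most steps have several isoenzymes with their own genes.

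The LY500307 library held 14698853 reads and the control library 16704950, recovered from the deposited values. No read was found for 788 genes in the LY500307 library and for 679 in the control library. Levels are given in CPM, read counts scaled for library size but not for transcript length, and shares of reads are likewise not corrected for length. Fold differences are log2((LY500307 + 1)/(control + 1)) of CPM, so a negative value means lower in the LY500307 library. The pseudocount of 1 understates the folds of genes with few reads. As each group is 1 library, differences have no replicate check and hold for these 2 libraries alone. Values in brackets after a ratio are its exact 95% interval from the read counts, which covers counting error only, and reads copied by PCR without molecular identifiers are not separate molecules. Markers of melanocytes were present in both libraries, with all 11 of 11 measured and a sum of 32003 CPM in the LY500307 library and 32668 CPM in the control library. Of 17 leukocyte markers 3 were listed and 1 reached 1 CPM, Cd68, at 1.35 CPM in the LY500307 library and 1.51 CPM in the control library. Of 15 fibroblast, endothelial, keratinocyte and erythroid markers 3 reached 1 CPM, and the list summed to 6.96 CPM in the LY500307 library and 7.53 CPM in the control library. Among these the collagen gene Col1a1 was at 2.30 CPM in the LY500307 library and 1.14 CPM in the control library (log2 fold 0.62), Col1a2 at 3.11 CPM in the LY500307 library and 4.82 CPM in the control library (-0.50), and Pdgfra at 1.49 CPM in the LY500307 library and 1.45 CPM in the control library (0.02).

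The genes from glucose uptake to lactate export were lower as a group in LY500307-treated cells by a modest amount, while the pentose phosphate genes were level or slightly higher. The 21 genes from the glucose transporters to the monocarboxylate transporters, with Pfkfb3 and Pfkfb4 left out, took 1.93% of reads in the LY500307 library (95% exact binomial interval 1.93 to 1.94) and 2.24% in the control library (2.23 to 2.24). Their summed CPM was 0.853 times the control value (0.849 to 0.857). Most of this sum came from Eno1, Pkm and Aldoa, with ratios of 0.888, 0.883 and 0.942. Gene by gene the median log2 fold of the 21 was -0.18, with 17 negative and 4 positive. Of all measured genes 51.7% had negative log2 folds, and 59.6% of those above 100 CPM. No such sum was computed for other abundant genes. The 7 pentose phosphate genes summed to 1523 CPM in the LY500307 library and 1389 CPM in the control library, a ratio of 1.10 (1.08 to 1.12). The 8 genes of pyruvate entry into mitochondria summed to 553.9 CPM in the LY500307 library and 561.2 CPM in the control library, a ratio of 0.987 (0.958 to 1.02). In bulk RNA a change in the mix of cells and a change of RNA per cell cannot be told apart.

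All 38 genes had a mean of at least 1 CPM over both libraries, and their median log2 fold was -0.07, against -0.01 over all 12243 genes at that level. Negative log2 folds were found for 22 of the 38 (57.9%) and positive ones for 16, where 51.7% of all genes were negative. Over the 22 members with a mean of at least 100 CPM the median was -0.16, against -0.03 over all 2371 genes at that level. Negative log2 folds were more common among abundant genes, with 15 of these 22 members (68.2%) against 59.6% of all genes at that level. A level at least 2-fold lower after LY500307 was seen for 2 of 38 members, Gapdh and Slc16a3, where 0.123% of all measured genes were that low. Summed with its listed near-identical copies Gapdh was not 2-fold lower, and the count is then 1 of 38. Whether the sum or the value of Gapdh alone is nearer to the true one is not known. Above 100 CPM the count was 1 of 22, Gapdh, where 0.0844% of all genes were. None of the 38 was at least 2-fold higher, where 0.253% of all genes were. With a smaller step, 9 of 38 members were at least 20% lower on the CPM + 1 scale, where 6.59% of all genes were, and 3 of 38 at least 25% higher, where 8.32% were. These 2 limits are the same step on the log scale. Above 100 CPM, where counting error is small, 6 of 22 members were at least 20% lower, against 1.86% of all genes, and 0 of 22 at least 25% higher, against 1.22%.

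**Figure D1:**
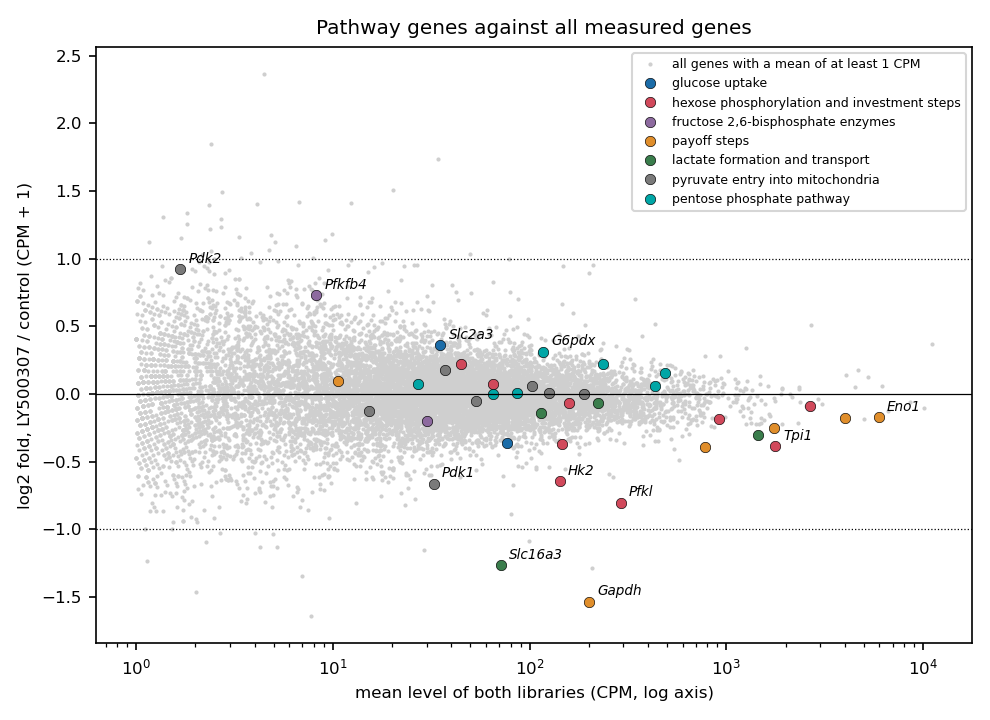
Log2 fold (LY500307 over control, CPM + 1, vertical axis) against the mean level of both libraries (CPM, log axis), with all genes of at least 1 CPM in grey and the 38 pathway genes coloured by pathway section; dotted lines mark 2-fold. Gapdh at -1.53 and Slc16a3 at -1.26 lie below the lower dotted line, Pfkl at -0.80 lies below the cloud of genes at its level, and no pathway gene lies above the upper line.

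The levels of these genes span a wide range. Per kb of the longest coding transcript, Eno1 was the most abundant, at 2761 CPM per kb in the LY500307 library and 3109 in the control library. Aldoa followed at 1661 CPM per kb in the LY500307 library and 1764 in the control library, then Pkm at 1553 in the LY500307 library and 1759 in the control library. Aldoa and Pkm are neighbours that nearly coincide in the control library. Tpi1, Pgk1, Ldha, Pgam1 and Gpi1 came next. By the mean of both libraries 8 of the 38 genes, all of glycolysis or lactate formation, lay above the most abundant pentose phosphate gene, Pgd. Pgd was at 231.8 CPM per kb in the LY500307 library and 208.4 in the control library. The lowest was Pdk2, at 1.11 CPM per kb in the LY500307 library and 0.376 in the control library. Gapdh, whose enzyme sits between Tpi1 and Pgk1 in the pathway, stood 12th by the mean of both libraries. It was at 72.4 CPM per kb in the LY500307 library and 211.0 in the control library, there just above Pgd. With listed copies added to every member that has them, Gapdh stood 8th at 303.4 CPM per kb in the LY500307 library and 476.7 in the control library, and 9 genes lay above Pgd.

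**Figure D2:**
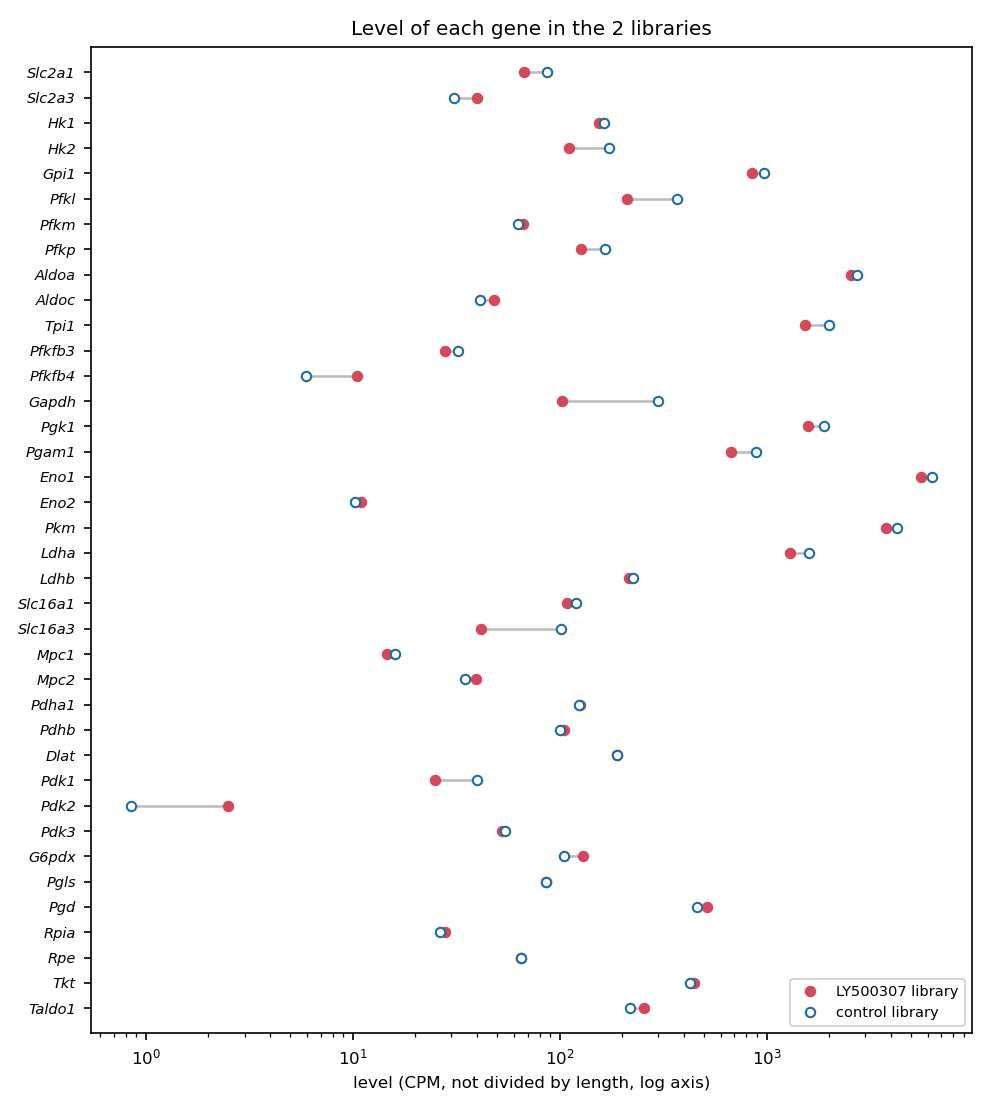
Level of each of the 38 genes (CPM, log axis) in the LY500307 library (filled points) and the control library (open points), listed in pathway order from glucose uptake at the top to the pentose phosphate pathway at the bottom. Among genes that averaged 10 CPM or more the widest gaps on this axis are those of Gapdh, Slc16a3, Pfkl, Pdk1 and Hk2, each with the LY500307 point to the left.

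The 2 glucose transporters differed in opposite directions. Slc2a1, the widely expressed basal transporter GLUT1, was at 67.5 CPM in the LY500307 library and 86.8 CPM in the control library, a log2 fold of -0.36 and a ratio of 0.777 (0.716 to 0.843). Slc2a3, the high-affinity transporter GLUT3 known from neurons, was at 39.7 CPM in the LY500307 library and 30.7 CPM in the control library, a log2 fold of 0.36 and a ratio of 1.29 (1.15 to 1.46). Slc2a1 was thus lower and Slc2a3 higher in the LY500307 library, and Slc2a3 made up 37.1% of the reads of both genes there (34.7 to 39.5), against 26.1% in the control library (24.2 to 28.2). Both genes together came to 107.2 CPM in the LY500307 library and 117.6 CPM in the control library. A noncoding gene on the other strand, Gm12868, shares 105 exonic bases with Slc2a1 and had 0 reads in the LY500307 library and 2 in the control library.

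Promoter sequence is shown for 6 of the members lower in the LY500307 library, for Slc16a1 and Hk1 as their less changed partners, and for the first pentose phosphate enzyme. These were picked as examples and not as a complete set. The sequences are RefSeq promoters on GRCm38.p6, each of 300 bases, 250 before and 50 after an annotated start, written along the gene's strand. The deposited table used another build, mm9, so these positions do not apply to it. Capitals mark ACGTG or GCGTG, the letters at the core of the hypoxia response element, found on either strand, so that CACGT and CACGC are the same letters read from the other strand. The E-box CACGTG, which MYC and related factors bind, overlaps ACGTG on both strands. The promoter of Slc2a1 lies at chr4:119108495-119108794 on the plus strand and holds 1 ACGTG and 1 GCGTG.
Slc2a1: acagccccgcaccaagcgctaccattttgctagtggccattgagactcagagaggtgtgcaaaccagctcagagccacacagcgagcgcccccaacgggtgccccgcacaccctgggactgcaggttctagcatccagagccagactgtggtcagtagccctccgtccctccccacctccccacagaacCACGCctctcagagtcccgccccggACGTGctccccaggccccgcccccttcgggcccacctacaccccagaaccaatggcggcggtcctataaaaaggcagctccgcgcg

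Hexokinase traps glucose in the cell as glucose 6-phosphate, and of its genes Hk2 was lower while Hk1 was close to level. Hk2, the isoenzyme that is prominent in tumours, was at 111.0 CPM in the LY500307 library and 173.6 CPM in the control library, a log2 fold of -0.64 and a ratio of 0.640 (0.602 to 0.680). Hk1, the isoenzyme found in most tissues, was at 155.8 CPM in the LY500307 library and 163.0 CPM in the control library (-0.06), with an interval that holds 1 (0.904 to 1.01). Hk2 therefore made up 41.6% of hexokinase reads in the LY500307 library (40.1 to 43.2) and 51.6% in the control library (50.3 to 52.9). Both genes together came to 266.8 CPM in the LY500307 library and 336.6 CPM in the control library, a ratio of 0.793 (0.761 to 0.826). Gpi1, the isomerase that makes fructose 6-phosphate, was at 855.4 CPM in the LY500307 library and 971.7 CPM in the control library (-0.18). The promoter of Hk2, at chr6:82774405-82774704 on the minus strand, holds 2 ACGTG, one 52 bases and one 226 bases before the start. Of the 2 listed promoters of Hk1, the one at chr10:62340372-62340671 on the minus strand, shown beside it, holds 2 ACGTG and 3 GCGTG, and the other holds neither.
Hk2: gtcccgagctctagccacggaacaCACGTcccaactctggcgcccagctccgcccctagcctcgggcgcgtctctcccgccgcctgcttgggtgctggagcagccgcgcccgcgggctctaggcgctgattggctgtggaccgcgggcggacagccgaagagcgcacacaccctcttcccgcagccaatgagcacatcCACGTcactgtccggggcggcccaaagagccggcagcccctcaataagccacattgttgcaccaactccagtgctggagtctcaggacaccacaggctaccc
Hk1: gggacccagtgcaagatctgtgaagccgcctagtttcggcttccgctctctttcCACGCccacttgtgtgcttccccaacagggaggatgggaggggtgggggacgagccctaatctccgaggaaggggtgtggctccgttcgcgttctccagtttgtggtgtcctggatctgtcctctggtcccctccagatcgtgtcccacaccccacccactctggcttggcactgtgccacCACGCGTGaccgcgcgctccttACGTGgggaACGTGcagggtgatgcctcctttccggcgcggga

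Phosphofructokinase, which commits the sugar to glycolysis, had the lowest summed ratio among the investment steps. Its liver-type subunit Pfkl was at 211.4 CPM in the LY500307 library and 369.2 CPM in the control library, a log2 fold of -0.80 and a ratio of 0.572 (0.548 to 0.598). The platelet-type subunit Pfkp was at 127.4 CPM in the LY500307 library and 165.0 CPM in the control library (-0.37). The muscle-type subunit Pfkm was at 66.6 CPM in the LY500307 library and 63.2 CPM in the control library (0.08), with an interval that holds 1 (0.966 to 1.15). The 3 subunits thus moved unequally, with the lowest ratio in the subunit most abundant per kb, and together they came to 405.3 CPM in the LY500307 library and 597.3 CPM in the control library, a ratio of 0.679 (0.657 to 0.701). Pfkl supplied 52.1% of subunit reads in the LY500307 library (50.9 to 53.4) and 61.8% in the control library (60.8 to 62.8). The value of Pfkp is uncertain, since Pitrm1 on the other strand shares 748 exonic bases with it. Pitrm1 was at 139.3 CPM in the LY500307 library and 164.6 CPM in the control library. The promoters of Pfkl, at chr10:78009758-78010057 on the minus strand, and of Pfkp, at chr13:6648722-6649021 on the minus strand, are given as the pair of subunits that were both lower. Pfkl holds 1 GCGTG and Pfkp 4, and neither holds ACGTG. Of the 4 listed promoters of Pfkm, which was level, 3 hold ACGTG or GCGTG.
Pfkl: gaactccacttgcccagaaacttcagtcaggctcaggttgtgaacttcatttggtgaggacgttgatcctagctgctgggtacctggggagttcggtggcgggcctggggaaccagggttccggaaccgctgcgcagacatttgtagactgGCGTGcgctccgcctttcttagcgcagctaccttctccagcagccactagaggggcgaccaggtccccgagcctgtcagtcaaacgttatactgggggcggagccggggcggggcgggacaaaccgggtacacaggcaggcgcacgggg
Pfkp: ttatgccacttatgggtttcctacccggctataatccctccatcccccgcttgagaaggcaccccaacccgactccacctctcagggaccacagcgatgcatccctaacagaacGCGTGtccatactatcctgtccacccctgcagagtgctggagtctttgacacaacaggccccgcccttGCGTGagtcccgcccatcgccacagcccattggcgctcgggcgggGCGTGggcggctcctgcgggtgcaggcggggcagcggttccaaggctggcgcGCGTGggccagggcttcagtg

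The enzymes that make and remove fructose 2,6-bisphosphate, the activator of phosphofructokinase, differed from each other. Pfkfb3, the form with high kinase activity, was at 28.0 CPM in the LY500307 library and 32.2 CPM in the control library (-0.20). Pfkfb4 was at 10.5 CPM (156 reads) in the LY500307 library and 5.97 CPM (99 reads) in the control library, a log2 fold of 0.73 and a ratio of 1.77 (1.36 to 2.30). As Pfkfb4 was the rarer of the 2 genes, their sum was nearly equal, at 38.5 CPM in the LY500307 library and 38.2 CPM in the control library.

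At the last investment steps the aldolases were nearly level and the triose phosphate isomerase was lower. The main aldolase gene Aldoa was at 2573 CPM in the LY500307 library and 2733 CPM in the control library (-0.09), while Aldoc, the brain form, was at 48.2 CPM in the LY500307 library and 41.2 CPM in the control library (0.22). Aldoa made up 98.2% of aldolase reads in the LY500307 library and 98.5% in the control library, so the shift in Aldoc barely touched the sum. Tpi1, which interconverts the triose phosphates, was at 1529 CPM in the LY500307 library and 1995 CPM in the control library, a log2 fold of -0.38 and a ratio of 0.767 (0.754 to 0.780). Among the 9 investment genes 7 had negative log2 folds, 4 of them at least 20% lower, and the median was -0.18. Of all measured genes 51.7% had negative log2 folds and 6.59% were at least 20% lower. Above 100 CPM these shares were 59.6% and 1.86%.

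**Figure D3:**
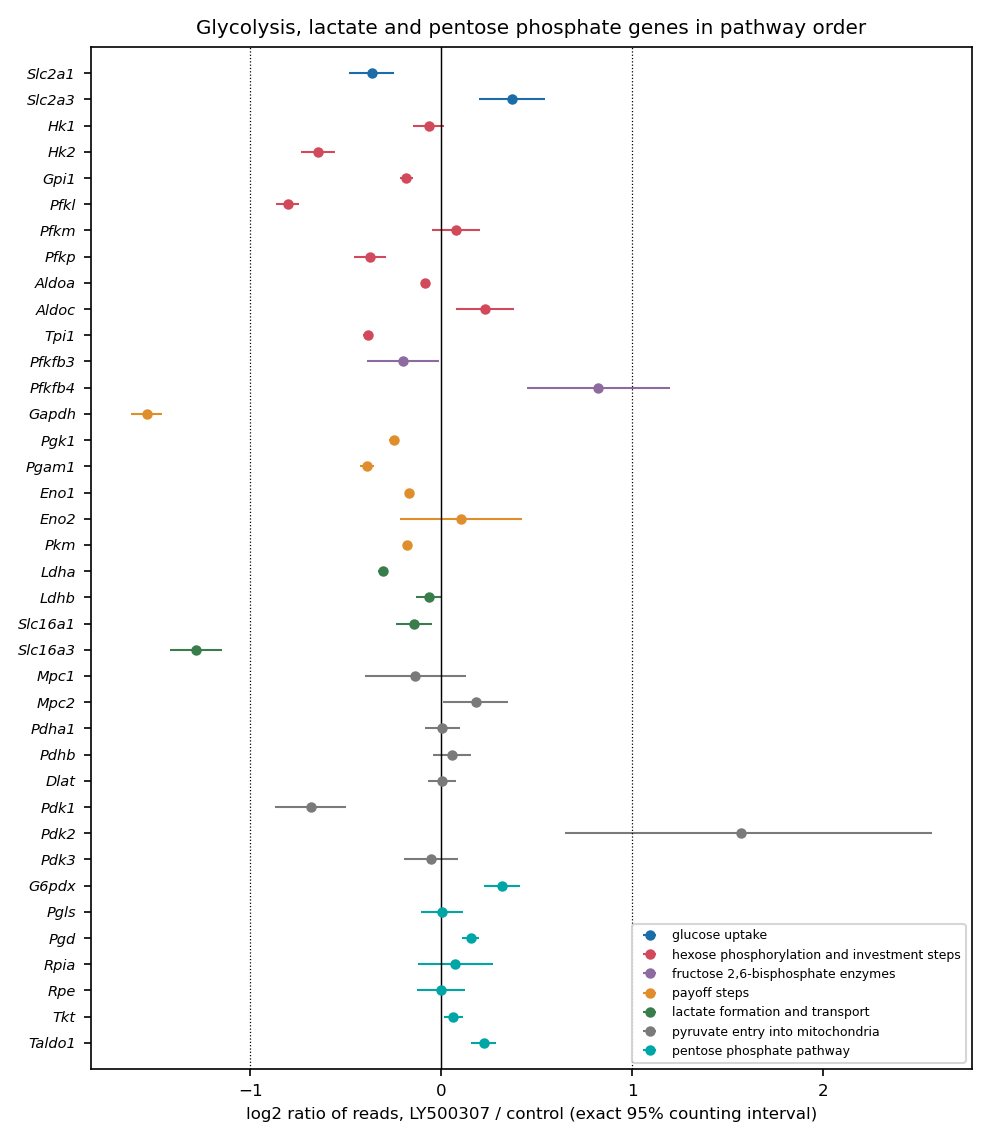
Log2 ratio of reads, LY500307 over control (horizontal axis), for the 38 genes in pathway order from top to bottom, with exact 95% counting intervals as bars and dotted lines at 2-fold. From glucose uptake to lactate most points lie left of 0, and in the pentose phosphate pathway, at the bottom, 6 of 7 lie right of it; the wide bars of Pdk2, Pfkfb4, Mpc1 and Eno2 reflect few reads.

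Gapdh had the lowest fold of the 38 genes, but its value depends on how reads were divided among near-identical copies. Gapdh, which oxidises glyceraldehyde 3-phosphate and serves in many assays as a loading control, was at 102.8 CPM in the LY500307 library and 299.6 CPM in the control library, a log2 fold of -1.53 and a ratio of 0.343 (0.324 to 0.364). A search of the GENCODE M21 transcripts found 78 near-identical copies, of which 72 are listed in the deposited table. These 72 summed to 328.0 CPM in the LY500307 library and 377.3 CPM in the control library, more than Gapdh itself in either one. Their ratio was 0.869 (0.837 to 0.903). Gapdh and its listed copies together were at 430.8 CPM in the LY500307 library and 676.9 CPM in the control library, a log2 fold of -0.65 and a ratio of 0.637 (0.617 to 0.656). Gapdh had 23.9% of these summed reads in the LY500307 library and 44.3% in the control library. Of the 35 copies with a mean of at least 1 CPM, 28 had negative and 7 positive log2 folds, between -0.56 and 0.43, and 0 were 2-fold lower. Over all measured genes 51.7% had negative log2 folds and 0.123% were 2-fold lower. Most of these copies had few reads and a ratio whose interval holds 1. The largest copies were close in both libraries. Gm5559 was at 95.5 CPM in the LY500307 library and 101.7 CPM in the control library, and Gm7336 at 83.3 CPM in the LY500307 library and 95.8 CPM in the control library. The log2 fold of the sum is still lower than that of any other payoff gene, but the sum is not 2-fold lower. How reads that match several copies were counted is not stated, so neither value can be taken as the corrected one.

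**Figure D4:**
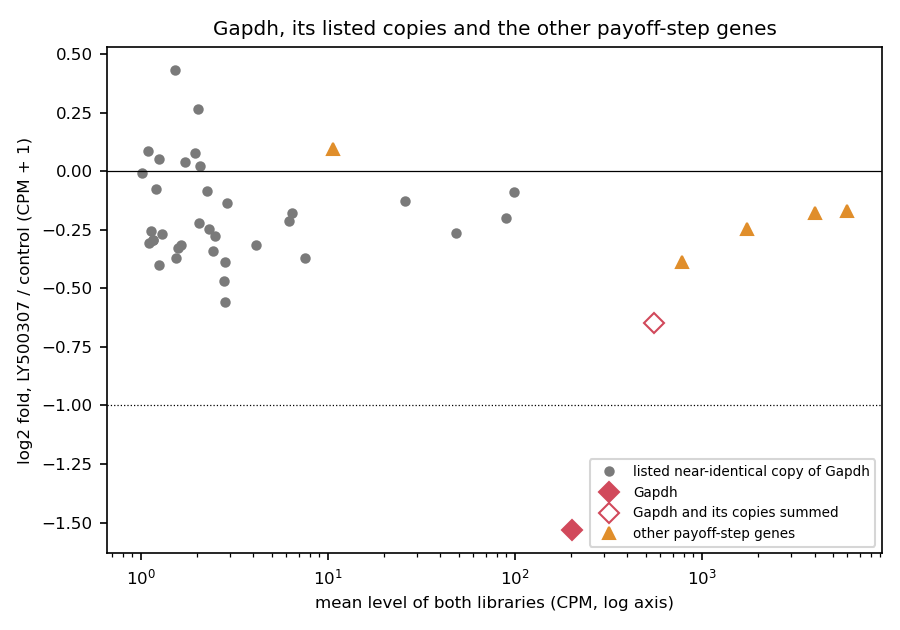
Log2 fold (LY500307 over control, CPM + 1) against mean level (CPM, log axis) for Gapdh alone (filled diamond), Gapdh with its listed copies (open diamond), the 35 copies of at least 1 CPM (circles) and the other payoff genes (triangles). Gapdh alone lies at -1.53 and the sum at -0.65, while the copies lie between -0.56 and 0.43.

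The remaining payoff genes were lower in a narrow band, except for the rare Eno2. Pgk1, which makes the first ATP of the payoff phase, was at 1595 CPM in the LY500307 library and 1894 CPM in the control library (-0.25). Pgam1, the phosphoglycerate mutase, was at 674.7 CPM in the LY500307 library and 884.5 CPM in the control library (-0.39, ratio 0.763 with an interval of 0.744 to 0.783). The enolase gene Eno1 was at 5597 CPM in the LY500307 library and 6303 CPM in the control library (-0.17). These abundant genes rest on many reads, so counting error is small beside their differences. Pkm, the pyruvate kinase of most tumour cells, was at 3778 CPM in the LY500307 library and 4278 CPM in the control library (-0.18), and its splice forms cannot be separated in values per gene. Gm49759 on the same strand shares 767 exonic bases with Pkm and was at 50.7 CPM in the LY500307 library and 66.7 CPM in the control library. Eno2, the neuronal enolase, was at 11.0 CPM in the LY500307 library and 10.2 CPM in the control library (0.10), with an interval that holds 1 (0.862 to 1.34). Pgk1, Pgam1, Eno1, Pkm and Tpi1 also have listed copies, and adding these left their log2 folds between -0.40 and -0.17.

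All 4 genes of lactate formation and transport had negative log2 folds, as did 51.7% of all measured genes and 59.6% of those above 100 CPM. The 4 folds differed widely. Ldha, the subunit that favours the making of lactate, was at 1296 CPM in the LY500307 library and 1600 CPM in the control library, a log2 fold of -0.30 and a ratio of 0.810 (0.795 to 0.825). Its 2 near-identical copies are not in the table used here. Ldhb, the heart-type subunit, was at 216.4 CPM in the LY500307 library and 226.5 CPM in the control library (-0.07), with an interval that holds 1 (0.911 to 1.002). The balance of the 2 subunits moved little, with Ldha at 85.7% of their reads in the LY500307 library and 87.6% in the control library. Slc16a3, the monocarboxylate transporter MCT4 known for exporting lactate from strongly glycolytic cells, was at 41.5 CPM (614 reads) in the LY500307 library and 101.0 CPM (1676 reads) in the control library. Its log2 fold was -1.26 and its ratio 0.411 (0.374 to 0.451), and no near-identical copy was found for it. Slc16a1, the more widely expressed transporter MCT1, was at 108.7 CPM in the LY500307 library and 120.0 CPM in the control library (-0.14, ratio 0.906 with an interval of 0.848 to 0.968). The 2 transporters lay farther apart in the LY500307 library than in the control library, and Slc16a3 made up 27.6% of their reads in the LY500307 library (25.8 to 29.5) and 45.7% in the control library (44.1 to 47.3). Their promoters are shown side by side as the pair with the largest split among those without Pdk2. Slc16a3, at chr11:120948817-120949116 on the plus strand, holds 2 ACGTG, 27 and 14 bases before the start. Slc16a1, at chr3:104638414-104638713 on the plus strand, holds 3 ACGTG and 2 GCGTG, and a pair of its ACGTG form 1 CACGTG.
Slc16a3: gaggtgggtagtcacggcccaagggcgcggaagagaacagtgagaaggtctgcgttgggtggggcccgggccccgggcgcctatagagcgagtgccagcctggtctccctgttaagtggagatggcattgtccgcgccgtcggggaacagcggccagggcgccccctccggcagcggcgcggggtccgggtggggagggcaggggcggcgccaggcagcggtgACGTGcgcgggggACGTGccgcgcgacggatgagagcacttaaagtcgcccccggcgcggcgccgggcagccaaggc
Slc16a1: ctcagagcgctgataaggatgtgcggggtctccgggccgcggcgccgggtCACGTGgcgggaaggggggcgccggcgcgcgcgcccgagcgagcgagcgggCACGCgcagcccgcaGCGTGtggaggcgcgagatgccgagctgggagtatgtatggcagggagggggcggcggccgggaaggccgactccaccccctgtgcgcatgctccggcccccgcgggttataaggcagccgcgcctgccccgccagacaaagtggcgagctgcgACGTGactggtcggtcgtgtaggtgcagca

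In pyruvate entry into mitochondria the dehydrogenase itself was close to level and the carrier gene Mpc2 slightly higher. The kinases that inhibit the dehydrogenase differed. The carrier subunit gene Mpc2 was at 39.5 CPM in the LY500307 library and 34.9 CPM in the control library (0.18, ratio 1.13 with an interval of 1.01 to 1.27). Its partner Mpc1 had 216 reads in the LY500307 library and 266 in the control library (-0.13). The level of Mpc1 is uncertain, since it supplied only 35.6% of its reads summed with the listed copy Mpc1-ps in the LY500307 library and 37.8% in the control library. The genes of the E1 and E2 subunits of the dehydrogenase, Pdha1, Pdhb and Dlat, stayed within 4.04% of the control value. Pdha1 was at 125.1 CPM in the LY500307 library and 124.6 CPM in the control library (0.01), Pdhb at 104.5 CPM in the LY500307 library and 100.5 CPM in the control library (0.06), and Dlat at 190.2 CPM in the LY500307 library and 189.9 CPM in the control library (0.00). The intervals of these 3 genes hold 1 and together run from 0.943 to 1.12. Map3k15 shares 603 exonic bases with Pdha1 on the other strand.

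Among the pyruvate dehydrogenase kinases, Pdk1, a known target of hypoxia-inducible factors, was at 24.9 CPM in the LY500307 library and 40.0 CPM in the control library, a log2 fold of -0.66 and a ratio of 0.623 (0.547 to 0.709). Pdk3, the most abundant of the 3 per kb, was at 52.4 CPM in the LY500307 library and 54.4 CPM in the control library (-0.05), with an interval that holds 1 (0.874 to 1.06). Pdk2 was at 2.50 CPM (37 reads) in the LY500307 library and 0.843 CPM (14 reads) in the control library, a log2 fold of 0.93. Its plain ratio was 2.96 (1.56 to 5.93), so it is past 2-fold without the pseudocount, with a lower bound below that. Summed over the kinases the level was 79.9 CPM in the LY500307 library and 95.3 CPM in the control library. The upstream promoter of Pdk1, at chr2:71872974-71873273 on the plus strand, holds 2 GCGTG. The other listed promoter of Pdk1 holds neither set of letters.
Pdk1: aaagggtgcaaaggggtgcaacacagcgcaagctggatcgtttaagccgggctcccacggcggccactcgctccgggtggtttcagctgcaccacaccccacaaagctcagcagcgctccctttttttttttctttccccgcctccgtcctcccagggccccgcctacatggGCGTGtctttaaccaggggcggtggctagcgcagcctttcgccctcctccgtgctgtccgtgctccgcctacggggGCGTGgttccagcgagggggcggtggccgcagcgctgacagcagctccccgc

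The pentose phosphate pathway went the other way from glycolysis by small amounts, with 6 of 7 log2 folds positive, a median of 0.07 and 0 genes past the 25% step, where 48.3% of all genes were positive. G6pdx, the first enzyme of the NADPH-making arm, was at 130.1 CPM in the LY500307 library and 104.6 CPM in the control library, a log2 fold of 0.31 and a ratio of 1.24 (1.17 to 1.33), just inside the 25% step on the CPM + 1 scale. It passed that step with each library over its own total (0.33) and with upper-quartile scaling (0.33). Pgd, the second NADPH-making enzyme, was at 514.1 CPM in the LY500307 library and 462.2 CPM in the control library (0.15). Both NADPH-making dehydrogenases were thus higher in the LY500307 library, by 24.5% and 11.2%. Pgls, the lactonase between them, was at 86.2 CPM in the LY500307 library and 85.8 CPM in the control library (0.01). Among the genes that rearrange pentoses, Taldo1, the transaldolase, was at 255.5 CPM in the LY500307 library and 219.1 CPM in the control library (0.22, ratio 1.17 with an interval of 1.11 to 1.22). Tkt, the transketolase, was at 444.3 CPM in the LY500307 library and 425.2 CPM in the control library (0.06, ratio 1.04 with an interval of 1.01 to 1.08). The isomerase Rpia was at 27.9 CPM in the LY500307 library and 26.5 CPM in the control library (0.07), and the epimerase Rpe at 65.3 CPM in both libraries, both with intervals that hold 1. The promoter of G6pdx, at chrX:74428831-74429130 on the minus strand, holds 1 ACGTG and 1 GCGTG. Ikbkg shares 418 exonic bases with G6pdx on the other strand, and was at 47.7 CPM in the LY500307 library and 44.0 CPM in the control library.
G6pdx: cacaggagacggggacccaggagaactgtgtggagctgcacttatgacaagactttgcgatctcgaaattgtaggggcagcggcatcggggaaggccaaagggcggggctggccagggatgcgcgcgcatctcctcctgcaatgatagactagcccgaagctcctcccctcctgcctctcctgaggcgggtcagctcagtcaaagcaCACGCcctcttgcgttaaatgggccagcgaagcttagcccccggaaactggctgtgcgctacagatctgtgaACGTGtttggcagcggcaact

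A ratio of ratios compares the partners of a step without any scaling of the libraries. Of 15 pairs, 5 had an exact conditional 95% interval above 1, 7 below 1 and 3 that held 1. The side of 1 depends on which gene was put first, so the split into above and below has no meaning of its own. No matching share over other pairs of genes was computed, so these counts have no background. Slc16a3 against Slc16a1 gave 0.453 (0.404 to 0.509), Hk2 against Hk1 0.669 (0.616 to 0.727) and Pfkl against Pfkm 0.543 (0.492 to 0.599). In each of these pairs the first gene was lower in the LY500307 library relative to its partner. Slc2a3 against Slc2a1 gave 1.66 (1.44 to 1.92), Pfkfb4 against Pfkfb3 2.03 (1.52 to 2.73) and Ldhb against Ldha 1.18 (1.12 to 1.24). Pdk1 against Pdk3 gave 0.647 (0.550 to 0.761), and Pdk1 against Pdk2, which rests on few reads, 0.211 (0.104 to 0.405). The pairs whose interval held 1 were Eno2 against Eno1, Mpc2 against Mpc1 and Pdhb against Pdha1. The pairs of a trio share genes and are not independent.

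**Figure D5:**
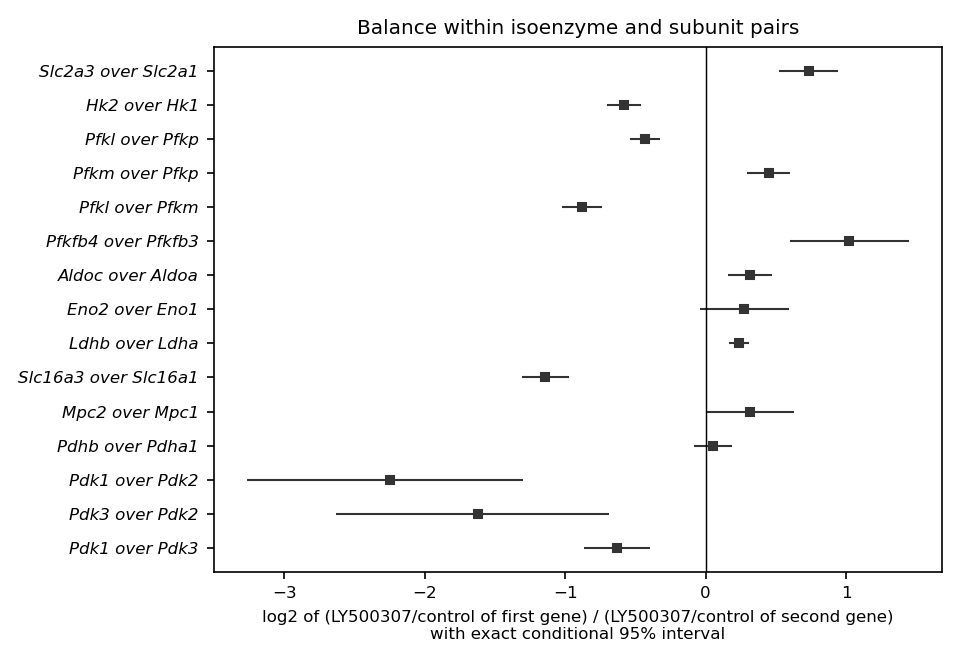
Log2 ratio of ratios for 15 isoenzyme or subunit pairs (LY500307 over control of the first gene, divided by the same of the second), with exact conditional 95% intervals as bars. Intervals lie wholly right of 0 for 5 pairs and wholly left of it for 7, and the side depends on which gene was put first. Slc16a3 over Slc16a1 stands at -1.14 with a narrow bar, and the bars of the pairs with Pdk2 are wide.

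The shown promoters were read against the whole promoter table. A promoter entry was found for 37 of the 38 genes. ACGTG or GCGTG was present in at least 1 promoter of 32 of these 37 genes (86.5%), against 46.7% of all 27025 genes in the table and 69.6% of the 9017 table genes measured here. Among the members at least 20% lower 8 of 9 held either set of letters, and among the other members 24 of 28 did. The share was thus close in both groups of members. As nearly all members held the letters and only 9 were lower, this count could hardly have shown a difference between the groups. Counting any promoter of a gene also favours genes with several. Per promoter, 40 of 53 among the members held the letters, against 43.8% of all 32851. That share covers genes not measured here as well, and the share per promoter was not computed for measured genes alone. The E-box letters CACGTG were present in 5 of 37 members (13.5%), against 8.09% of all genes in the table and 12.2% of those measured here. A match is a run of letters and no measured binding site.

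An exact binomial test of reads per gene sets the 2 libraries against each other and says nothing of variation between cultures. With Benjamini-Hochberg adjustment over all measured genes it called 16 of the 38 members lower, where 14.2% of all genes were lower, and 8 higher, where 12.3% were higher. The members it added to those past the smaller step were the abundant Gpi1, Aldoa, Pgk1, Eno1, Pkm, Ldha and Slc16a1 on the lower side, and Aldoc, G6pdx, Pgd, Tkt and Taldo1 on the higher side. Such a test calls smaller differences in genes with more reads. A mean of at least 100 CPM was reached by 22 of the 38 members, against 2371 of all 12243 genes. The shares over all genes are therefore not matched to the members in level.

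Genes next to these pathways were mostly level, as most measured genes were. Over all measured genes 6.59% were at least 20% lower and 8.32% at least 25% higher. Above 100 CPM these shares were 1.86% and 1.22%. The 18 genes of the tricarboxylic acid cycle had a median log2 fold of -0.01 and 0 past the smaller step in either direction, with Slc25a1, the citrate carrier, at 0.30 as the farthest. Ogdh, an oxoglutarate dehydrogenase subunit, was at -0.23 and Idh3g, an isocitrate dehydrogenase subunit, at 0.22. The 9 measured other pentose phosphate genes had a median of 0.01, the 5 of serine and glycine synthesis 0.04, the 7 of the hexosamine pathway -0.04 and the 9 of the NADH shuttles -0.01, and 0 genes of these lists were past that step. Among the 5 serine genes Shmt1 was at -0.26, Psph, which makes serine in the last step of its synthesis, at 0.18 and Shmt2 at 0.06. Of 19 other measured isoenzymes and cofactors of glycolysis and lactate, 1 was at least 20% lower and 3 at least 25% higher, with a median of -0.01. Eno3, the muscle enolase, was at 23.3 CPM in the LY500307 library and 16.9 CPM in the control library (0.44). The rest of these 4 rested on few reads. Pfkfb1 had 35 reads in the LY500307 library and 19 in the control library (0.65). The transporter gene Slc16a8 had 55 reads in the LY500307 library and 37 in the control library (0.55), and Slc16a7 had 25 reads in the LY500307 library and 42 in the control library (-0.39).

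Of the genes that store glucose or make it anew, and of other regulators of pyruvate dehydrogenase, few passed the smaller step. Over all measured genes 6.59% passed it on the lower side and 8.32% on the higher side. Pgm1, a phosphoglucomutase gene, was at 151.8 CPM in the LY500307 library and 206.2 CPM in the control library (-0.44), within a glycogen list of 14 measured genes with a median of -0.07, 2 lower and 1 higher. The others past the step were the phosphorylase kinase subunit genes Phkg2, at 15.0 CPM in the LY500307 library and 19.0 CPM in the control library (-0.33), and Phkg1, with 21 reads in the LY500307 library and 13 in the control library (0.44). Pck2, the mitochondrial phosphoenolpyruvate carboxykinase, was at 103.7 CPM in the LY500307 library and 79.1 CPM in the control library (0.39), the 1 gene of 4 in gluconeogenesis past the step. Pdp2, a phosphatase that reactivates pyruvate dehydrogenase, was at 14.2 CPM in the LY500307 library and 21.6 CPM in the control library (-0.57), and was the 1 of 8 other genes of that complex past the step. Pdp2 and Pdk1, which act on the complex in opposite ways, were thus both lower in the LY500307 library.

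Of 13 measured regulators of glycolytic transcription and sugar sensing, 3 were at least 20% lower and 0 at least 25% higher, with a median of -0.05. Over all measured genes these shares were 6.59% and 8.32%. Egln1, an oxygen-sensing prolyl hydroxylase that marks hypoxia-inducible factors for destruction, was at 57.9 CPM in the LY500307 library and 88.7 CPM in the control library (-0.61). Egln3, a related hydroxylase, was at 2.03 CPM (30 reads) in the LY500307 library and 3.68 CPM (61 reads) in the control library, a log2 fold of -0.63. Txnip, a thioredoxin-binding arrestin that limits glucose uptake, was at 12.3 CPM in the LY500307 library and 19.5 CPM in the control library (-0.63). The transcription factor gene Hif1a itself was at -0.05 and Myc at 0.04, both close in the 2 libraries at the level of RNA.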

How the data were processed

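Libraries were stranded and came from total RNA without ribosomal RNA, per the labels' protocols. CASAVA 1.8, Bowtie2 and the build mm9 are named in the submitters' processing notes. How reads were counted, with which annotation and strand setting, and how values were scaled is not stated in the labels. The values the authors deposited are a signal per gene. Dividing them by the constant step between successive values, 1.06 in the LY500307 library and 0.944 in the control library, gave whole read counts within 0.01 of a read for 99.9% of deposited values in both, and a read was worth 0.0676 CPM in the LY500307 library and 0.0603 CPM in the control library. CPM is a deposited value over the mean of the 2 library totals. Symbols came from a table of gene names for 18177 of 18224 identifiers.

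Members, lists, pairs and steps were chosen with earlier results of these data known. Folds were counted at 2-fold and at a smaller step (20% lower or 25% higher) among genes averaging 1 CPM or more, with no test between treatments. Intervals of a ratio are exact Clopper-Pearson intervals, and those of a ratio of ratios are exact conditional intervals. A near-identical copy is a GENCODE M21 gene with a transcript that matches the member's longest coding transcript with an identity of at least 95%, for 100 bases or more and 50% of the shorter one (blastn 2.17.0). Such a copy was found for 11 members, of which 10 have a listed one, and 8 members (G6pdx, Gpi1, Hk1, Mpc1, Pdha1, Pfkp, Rpe and Slc2a1) share at least 100 exonic bases with a gene on the other strand. On the same strand Pgls shares 776 bases with Fam129c, Pkm 767 with Gm49759 and Pfkm 341 with Gm26513. All members are named, and of each other list every gene past the smaller step. Further genes come from the 3 largest absolute folds of a list, which are not all named. Hif1a and Myc were added for their role. Alternatives were other pseudocounts, expression minimums and scalings, the treatment of copies, and a binomial test of reads at an adjusted p of 0.05. The calculations were tested on simulated data. Software was pandas 2.3.3, scipy 1.17.1, numpy 2.4.6 and matplotlib 3.10.9 under Python 3.11.15.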

Additional observations from a re-analysis of the deposited data

How the results depend on the processing

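Scaling moved little. The median log2 fold of all genes shifted by at most 0.02 when each library was divided by its own total, by the median of ratios or by the upper quartile, and the split of members into 22 negative and 16 positive became 21 and 17 with the first and the third of these. With its own total per library Eno1 came to -0.15 and Pkm to -0.16, beyond their counting error, while the other 36 members moved less than theirs. The counts past the smaller step kept within 1.5 times under each alternative run, with 4 higher in place of 3 when each library had its own total or upper-quartile scaling, as G6pdx passed, but the count of members 2-fold lower was 1 with listed copies added, as Gapdh came to -0.65, and 1 with members that have a copy left out. The count 2-fold higher was 1, Pdk2, with a pseudocount of 0.5 and with none, a setting added after seeing the data. Leaving out members that have a copy gave medians of -0.087 for the investment steps, 0.10 for the payoff steps, where Eno2 is the 1 gene left, and -0.70 for lactate formation and transport, where both transporters are left, and over the 27 members without a copy 12 log2 folds were negative and 15 positive. The binomial test counted 16 lower and 8 higher in place of 9 and 3. With a minimum of 5 CPM Pdk2 dropped out. No paired analysis was possible because each group has 1 library. Depth limits Pdk2, Pfkfb4, Mpc1, Eno2 and Rpia, whose ratios have wide counting intervals.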
